A study of Homo sapiens with 6 samples.

Results

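Translation initiation factors (EIF genes) and elongation factors (EEF genes) were followed over 3 oligonucleotide treatments of human embryonic stem cells. The members were the symbols of the deposited count table that begin with EIF or EEF and a digit. Symbols ending in P and digits, symbols with a hyphen or a point, and pseudogenes were left out. Of 172 such symbols 61 were members, out of 53715 genes in the table, and 58 of the 61 passed the filter on low counts and were tested. The filter of names also removed the eIF4E-binding proteins EIF4EBP1, EIF4EBP2 and EIF4EBP3, which are given with the accessory genes.

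Poly(A) RNA was sequenced from H9 cells, an established human embryonic stem cell line cultured in the primed state, 48 hours after transfection. ASO-L1 cells received an antisense oligo against LINE1 (L1), a family of transposable elements, sO-L1 cells the sense oligo of L1, and ASO-Ctr cells a non-targeting antisense oligo, each at 25 nM. The study asked whether L1 regulates genes that are active in 8-cell embryos. Each oligo carried a fluorescein tag, and tagged cells were collected by flow sorting. During the first 24 hours all 3 groups, the controls included, were also exposed to ISRIB (0.7 uM), to the caspase inhibitor emricasan (5 uM) and to the ROCK inhibitor Y-27632 (10 uM). Whether cells were kept in mTeSR or RSeT after transfection is unclear, since the submitters' descriptions differ. Each group had 2 libraries of the one line, and nothing says that they came from separate cultures. The p-values therefore measure the spread between these libraries, which may be technical and which the fit drew largely from other genes.

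Initiation begins when eIF2, loaded with GTP and the initiator tRNA, joins the small ribosomal subunit, which is brought to the capped mRNA by eIF3 and the eIF4 factors. eIF2B recharges eIF2 with GTP. The kinases encoded by the EIF2AK genes phosphorylate the alpha subunit of eIF2 under stress, which turns eIF2 into an inhibitor of eIF2B, lowers general translation and raises that of the transcription factor ATF4. ISRIB binds eIF2B and keeps it active in spite of that phosphorylation, so a drug that acts on the product of the EIF2B genes was present in every group for the first 24 hours.

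Library totals were 46223290 and 57899009 counts in ASO-L1 cells, 34665403 and 60999413 in sO-L1 cells, and 18897936 and 67192937 in ASO-Ctr cells. A count of 3 corresponded to 0.0437 to 0.159 CPM, the counts scaled to a common library size, in which all levels below are given. All 8 pluripotent cell markers were above 1 CPM in every library, and their summed level was 8278 to 8324 CPM in ASO-L1 cells, 8446 to 8849 CPM in sO-L1 cells and 8191 to 8576 CPM in ASO-Ctr cells. The 8 fibroblast markers, 5 of them above 1 CPM in every library, summed to 411 to 412 CPM in ASO-L1, 394 to 407 in sO-L1 and 409 to 416 in ASO-Ctr cells. The 8 neural markers, 4 of them above 1 CPM, summed to 623 to 626 CPM in ASO-L1, 594 to 610 in sO-L1 and 573 to 580 in ASO-Ctr cells. With 1 of 8 above 1 CPM in each list, mesoderm and endoderm markers summed to 4.09 to 4.87 CPM in ASO-L1, 5.76 to 6.34 in sO-L1 and 5.28 to 5.42 in ASO-Ctr cells, and trophoblast markers, with HAND1 at 0, to 10.1 to 10.6 in ASO-L1, 10.6 to 11.1 in sO-L1 and 9.82 to 10.8 in ASO-Ctr cells. Against sO-L1, 1 of the 8 pluripotent cell markers was called higher and 3 lower, 1 of 6 fibroblast markers tested higher (COL1A1, log2 fold change 0.63) with 4 of the 6 negative in sign, 0 of 7 neural markers in either direction, and of 5 mesoderm and endoderm markers EOMES higher (1.13) and FOXA2 lower (-1.13). Against ASO-Ctr, 1 pluripotent cell marker was called higher and 2 lower, and 1 higher and 1 lower in each of the fibroblast, neural, and mesoderm and endoderm lists. Of the pluripotent cell markers 50% were thus called against sO-L1 and 37.5% against ASO-Ctr, where 23% and 21.5% of all tested genes were called. The 1 trophoblast marker tested was called in neither comparison. These genes were named after their values were seen, and their part in the results was not tested.

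Translation factor RNA took a slightly larger share of the ASO-L1 libraries. By summed CPM, the 61 members together made up 2.35% and 2.24% of the scaled library total in ASO-L1 cells (replicates 1 and 2). The values were 2.22% and 2.08% in sO-L1 cells, and 2.18% and 2.04% in ASO-Ctr cells. Within each group replicate 1 was the higher, and the lower ASO-L1 library lay only just above the higher library of the other groups. The elongation factors summed to 10324 and 9529 CPM in ASO-L1 cells, 9025 and 8375 CPM in sO-L1 cells, and 8991 and 8340 CPM in ASO-Ctr cells, and did not overlap between ASO-L1 and the others. The initiation factors summed to 13187 and 12903 CPM in ASO-L1 cells, 13200 and 12467 CPM in sO-L1 cells, and 12823 and 12104 CPM in ASO-Ctr cells. In that sum ASO-L1 overlapped sO-L1 and lay above ASO-Ctr. Most of the difference in the elongation sum, and in the sum of all members, lay in 2 genes, EEF1A1 and EEF2. EEF1A1 had a mean of 6041 CPM in ASO-L1, 5479 in sO-L1 and 5403 in ASO-Ctr cells. EEF2 had 3185, 2550 and 2618 CPM in the same order. These sums were not tested.

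Most single factors moved by little. Against sO-L1, edgeR's quasi-likelihood test, fitted with group and replicate number and adjusted by Benjamini-Hochberg over all 19156 tested genes, called 10 members higher and 6 lower in ASO-L1 cells, 27.6% of the 58, where 23% of all tested genes were called (10.3% higher and 12.7% lower). Against ASO-Ctr it called 20 higher and 6 lower, 44.8%, where 21.5% of all tested genes were called (9.88% higher and 11.6% lower). The median log2 fold change of the members was 0.04 against sO-L1 and 0.07 against ASO-Ctr, where that of all tested genes was 0.00 in both. Regardless of sign, the median was 0.097 against sO-L1 and 0.129 against ASO-Ctr, smaller than the 0.159 of all tested genes in both. The members also had higher levels, with a median log2 CPM of 7.27 where that of all tested genes was 3.45. Small changes are called more readily at high counts, so the larger shares called are not larger changes. Between sO-L1 and ASO-Ctr 2 members were called, both higher, or 3.45%, where 1.72% of all genes were called (0.658% higher and 1.06% lower). The 10 members higher and the 6 lower against sO-L1 had the same call against ASO-Ctr, but both comparisons use the same ASO-L1 libraries. Where a gene has a pair of log2 fold changes, the first is ASO-L1 over sO-L1 and the second ASO-L1 over ASO-Ctr. In these bulk samples a change in the kinds of cell present and a change of RNA per cell cannot be told apart.

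The calls rested on the replicate number in the fit. Without it, EIF4G3 was the only member called in either ASO-L1 comparison, where 1.84% of all genes were called against sO-L1 (0.914% higher and 0.924% lower) and 1.95% against ASO-Ctr (0.903% higher and 1.05% lower). The other called members then had adjusted p between 0.0553 and 0.528 against sO-L1 and between 0.0686 and 0.616 against ASO-Ctr, with log2 fold changes that kept their sign. Without the replicate number 10 of the 58 members had an unadjusted p under 0.05 against sO-L1, where 3167 of all 19156 tested genes had one. Against ASO-Ctr 13 members had one, where 3207 of all tested genes did. Replicate 1 was above replicate 2 in all 3 groups for 34 of the 58 members (58.6%), where this held for 24.6% of all genes, and below it in all 3 for 10 members (17.2%), where this held for 26.4%. Leaving out replicate 1 of ASO-L1 or replicate 1 of sO-L1 lowered the calls against sO-L1 to 9. Leaving out replicate 1 of ASO-Ctr lowered those against ASO-Ctr to 13, and leaving out replicate 1 of ASO-L1 or replicate 2 of ASO-Ctr lowered them to 17. The members called against sO-L1 whichever library was left out were EIF1, EIF1B, EEF2, EIF2D, EIF3D and EIF4G3, and those called against ASO-Ctr were EIF1, EIF1B, EEF2, EIF2S1, EIF2S3, EIF3D, EIF3G, EIF3M, EIF4E3 and EIF4G3. The other calls were lost when at least 1 library was left out. How many of all tested genes kept their calls in such fits is not given here, so members cannot be compared with other genes in this.

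**Figure D1:**
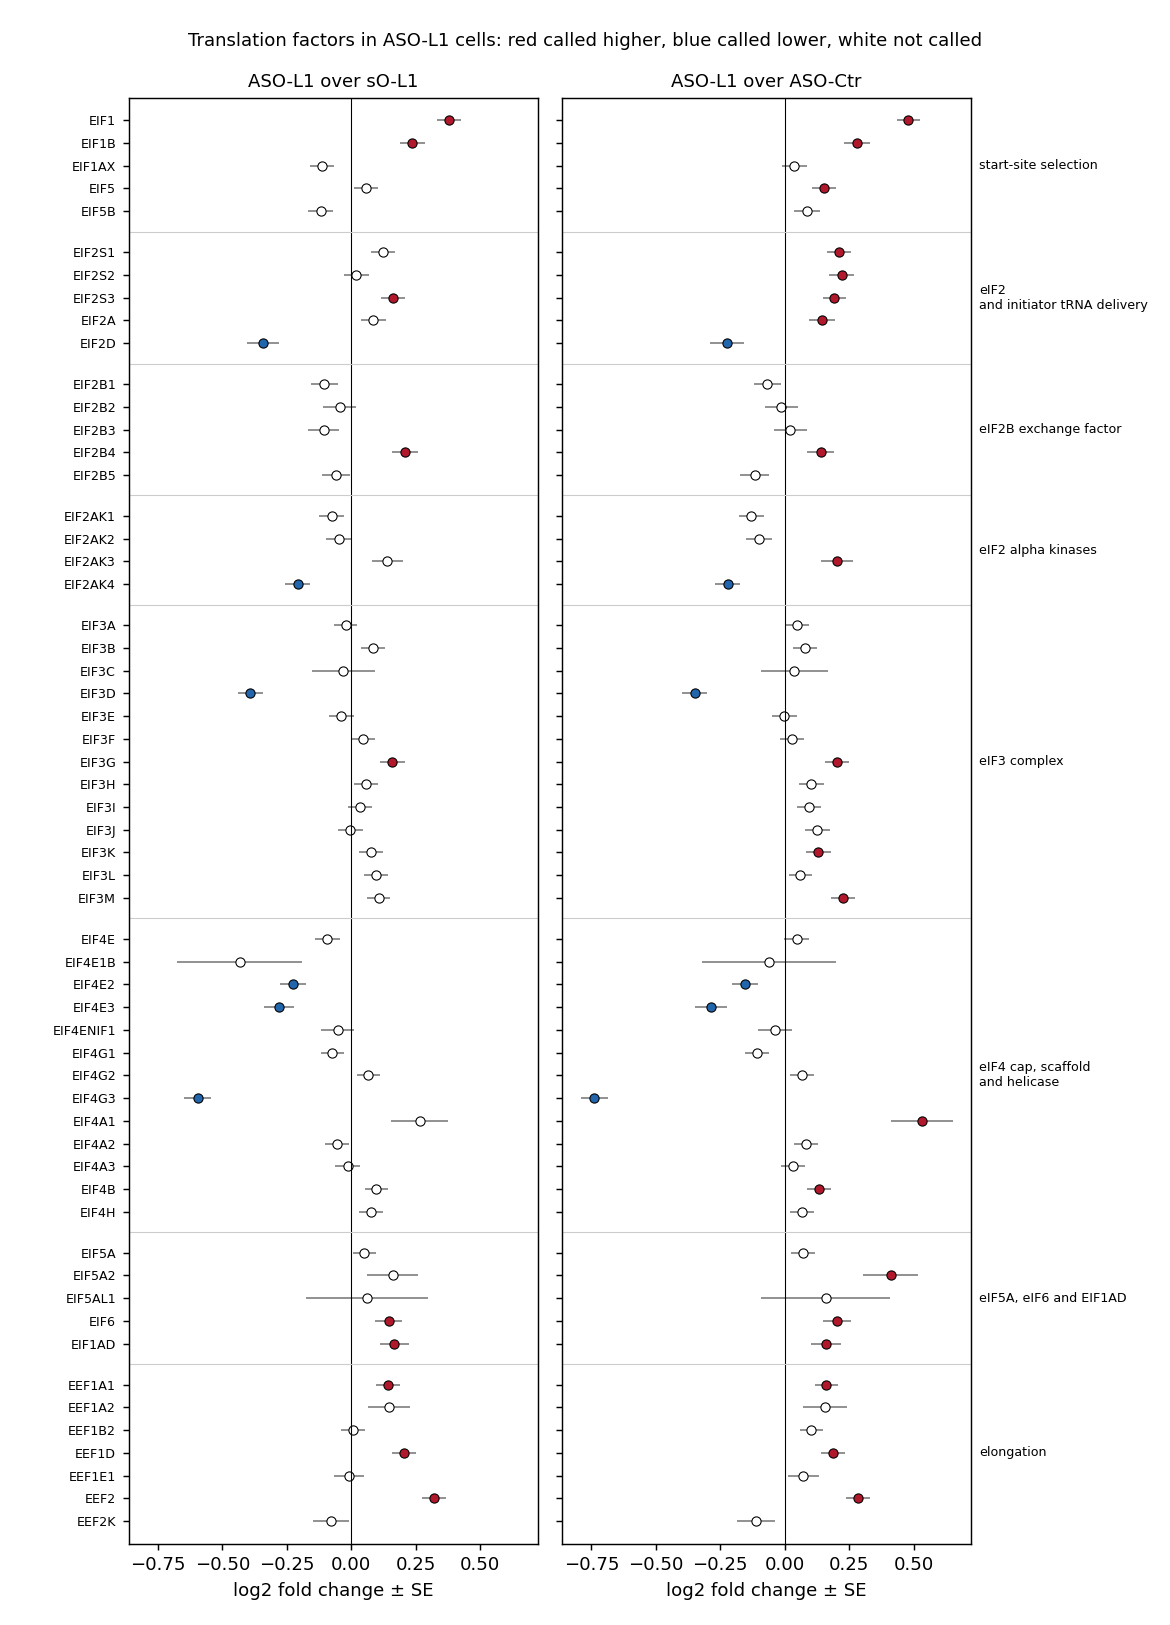
Log2 fold change ± SE of 57 tested members (horizontal axis), ordered by role down the page, for ASO-L1 over sO-L1 and ASO-L1 over ASO-Ctr. Red points were called higher, blue lower and white not called by edgeR with the replicate number in the fit; EIF2S3L, with 5 to 10 counts a library, is not drawn. EIF4G3 lies farthest to the left in both panels.

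Many mRNAs of the translation machinery begin with a C followed by pyrimidines, the terminal oligopyrimidine tract through which mTORC1 and the RNA-binding protein LARP1 are known to control their translation. Starts of 51 members were found in RefSeq (build GRCh38.p14), and 13 of them (25.5%) had at least 1 start with C at the first base and C or T at each of the next 4 bases, where 4.07% of all 35116 RefSeq starts and 7.05% of the 11349 tested genes with a start did. The starts of some of the members described below are printed with 40 bases before and 20 bases from the annotated first base, on the gene's strand. They were picked by hand, so the share with a tract among them does not stand for that of all members. Capitals mark the tract, from the first base to the last pyrimidine of the run. EEF2 (chr19:3985444-3985503, minus strand), EEF1A1 (chr6:73521013-73521072, minus), EIF2S3 (chrX:24054916-24054975, plus), EIF3D (chr22:36529147-36529206, minus) and EIF2D (chr1:206612446-206612505, minus) had it, and EIF1 (chr17:41688845-41688904, plus) and EIF4G3 (chr1:21176878-21176937, minus), the members with the largest rise and fall against sO-L1, did not.
EEF2: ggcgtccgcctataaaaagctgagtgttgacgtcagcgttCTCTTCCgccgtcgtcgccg
EEF1A1: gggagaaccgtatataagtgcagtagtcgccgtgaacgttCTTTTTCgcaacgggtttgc
EIF2S3: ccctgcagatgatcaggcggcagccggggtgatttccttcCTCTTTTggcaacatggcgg
EIF3D: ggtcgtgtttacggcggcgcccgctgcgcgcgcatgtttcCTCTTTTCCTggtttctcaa
EIF2D: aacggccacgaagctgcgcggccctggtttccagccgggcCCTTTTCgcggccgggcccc
EIF1: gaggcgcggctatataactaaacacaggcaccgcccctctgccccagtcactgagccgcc
EIF4G3: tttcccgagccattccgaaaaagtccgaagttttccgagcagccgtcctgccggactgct

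Tracts were present among members that rose, fell and were not called. Against sO-L1, 3 of 8 members with a known start that were called higher had a tract, as did 2 of 6 called lower and 8 of 35 not called. Against ASO-Ctr the counts were 7 of 17 higher, 2 of 6 lower and 4 of 26 not called. EEF2 and EIF3D, both with a tract, moved in opposite directions. The letters TGATGNAA on either strand, the core of the element bound by ATF4 with C/EBP factors, were found between 250 bases before and 50 after the start of 1 of the 51 members, EIF4E3 (1.96%), and in 3.62% of all RefSeq starts. The first share counts genes with the letters at any of their starts and the second counts single starts, so the shares are of unlike units.

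Among the factors that choose the start codon, EIF1 and EIF1B rose in ASO-L1 cells. EIF1 encodes the small protein that keeps the scanning ribosome from starting at the wrong codon, and EIF1B its close paralog. EIF1 stood at 473 and 403 CPM in ASO-L1 cells, 368 and 306 CPM in sO-L1 cells, and 333 and 294 CPM in ASO-Ctr cells. Both ASO-L1 libraries were above all the others, and replicate 1 was the higher in each group. Its log2 fold change was 0.38 ± 0.05 (SE) against sO-L1 (adjusted p = 9.49e-09, and 0.136 without the replicate number) and 0.48 ± 0.05 against ASO-Ctr (1.98e-11, and 0.0686 without it). EIF1B had 118 and 102 CPM in ASO-L1 cells, 101 and 85.7 CPM in sO-L1 cells, and 100.1 and 81.6 CPM in ASO-Ctr cells, so that ASO-L1 replicate 2 was barely above replicate 1 of the other groups. The log2 fold change of EIF1B was 0.24 ± 0.05 against sO-L1 (adjusted p = 2.08e-04) and 0.28 ± 0.05 against ASO-Ctr (2.08e-05).

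The other start-site factors gave smaller differences. EIF5, which triggers GTP hydrolysis by eIF2 at the start codon, had 426 and 414 CPM in ASO-L1 cells, 418 and 390 CPM in sO-L1 cells, and 385 and 372 CPM in ASO-Ctr cells. It was called higher against ASO-Ctr alone (log2 fold change 0.15, adjusted p = 0.0124; 0.06 and 0.418 against sO-L1), and the difference between those 2 comparisons is that of sO-L1 and ASO-Ctr, which was not called (0.10, adjusted p = 0.370). EIF5B, the GTPase that joins the large subunit, had 381 and 399 CPM in ASO-L1 cells, 446 and 403 CPM in sO-L1 cells, and 356 and 377 CPM in ASO-Ctr cells. Here the sO-L1 libraries were the highest, and EIF5B was called higher in sO-L1 than in ASO-Ctr cells (0.21 ± 0.05, adjusted p = 0.0177), a call that was lost without sO-L1 replicate 1 or ASO-Ctr replicate 1. EIF1AX, the X-linked gene of the partner of EIF1, was called in no comparison (-0.11 against sO-L1, 0.04 against ASO-Ctr).

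**Figure D2:**
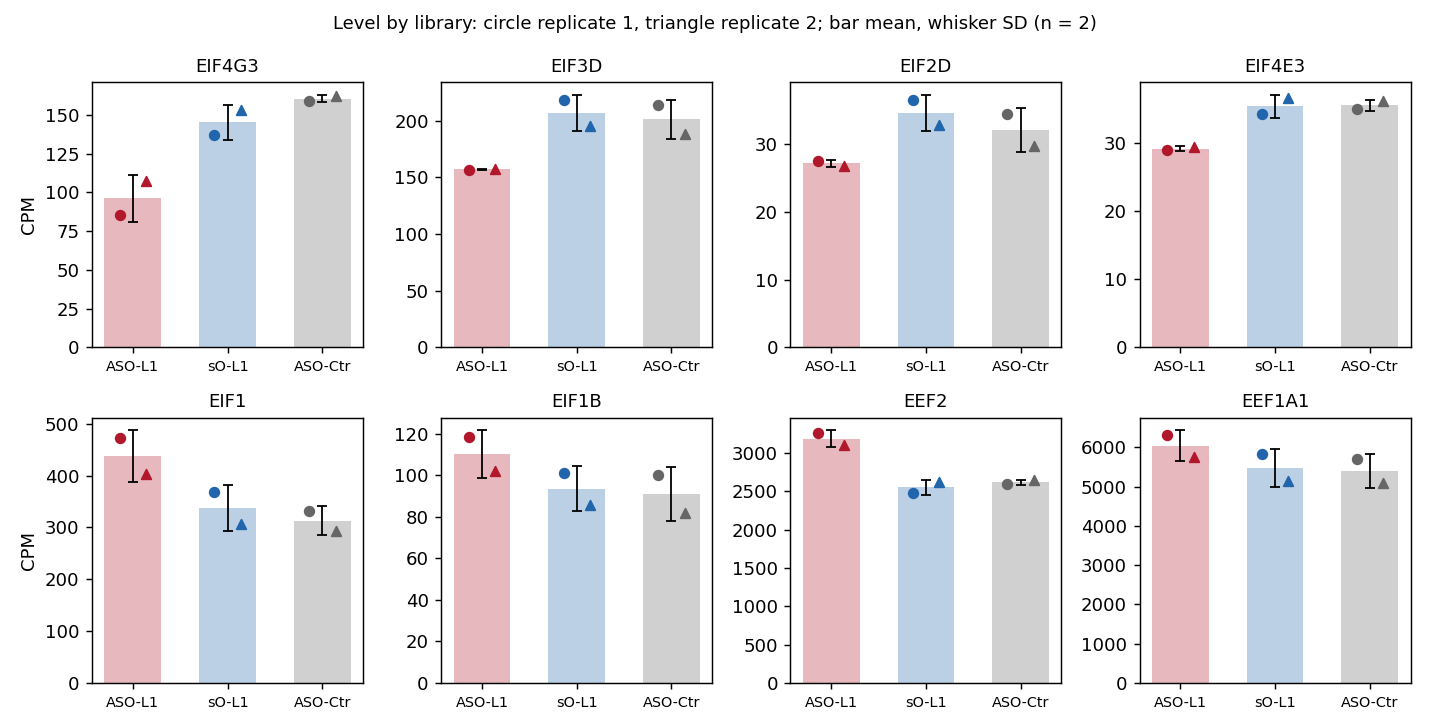
CPM by library of 8 called members in ASO-L1, sO-L1 and ASO-Ctr cells, with circles for replicate 1, triangles for replicate 2, bars for the mean and whiskers for the SD (n = 2). In EIF4G3, EIF3D, EIF2D and EIF4E3 both ASO-L1 libraries are below all others; in EIF1, EIF1B and EEF2 both are above; in EEF1A1 replicate 2 of ASO-L1 is below replicate 1 of sO-L1.

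All 3 subunit genes of eIF2 were called higher against ASO-Ctr, and EIF2S3 against sO-L1 as well. Among all tested genes 9.88% were called higher against ASO-Ctr and 10.3% against sO-L1. EIF2S3, the gene of the gamma subunit that holds GTP and the initiator tRNA, had 682 and 683 CPM in ASO-L1 cells, 605 and 614 CPM in sO-L1 cells, and 601 and 593 CPM in ASO-Ctr cells. Both ASO-L1 libraries were above the rest with little spread within groups, and EIF2S3 was called higher against sO-L1 (0.16 ± 0.05, adjusted p = 0.00628) and ASO-Ctr (0.19 ± 0.05, 0.00124). Against sO-L1 the call was lost without replicate 1 of ASO-L1 or of sO-L1. EIF2S1, the gene of the alpha subunit that the stress kinases phosphorylate, had 185 and 163 CPM in ASO-L1 cells, 170 and 149 CPM in sO-L1 cells, and 162 and 139 CPM in ASO-Ctr cells. ASO-L1 overlapped sO-L1 and lay above ASO-Ctr, with log2 fold changes of 0.12 (adjusted p = 0.0512) and 0.21 (6.99e-04).

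EIF2S2, the gene of the beta subunit, had 302 and 261 CPM in ASO-L1 cells, 310 and 248 CPM in sO-L1 cells, and 250 and 231 CPM in ASO-Ctr cells. ASO-Ctr had the lowest mean, though its replicate 1 lay just above sO-L1 replicate 2. EIF2S2 was called higher in ASO-L1 than in ASO-Ctr (0.22 ± 0.05, adjusted p = 5.53e-04) and in sO-L1 than in ASO-Ctr (0.20 ± 0.05, 0.0193), both against the same ASO-Ctr libraries, and not in ASO-L1 against sO-L1 (0.02, 0.823). Without ASO-Ctr replicate 1, the shallowest library, neither of those 2 calls held (adjusted p = 0.138 and 0.665), and without sO-L1 replicate 1 the second did not. EIF2S3L, the near-identical autosomal copy of EIF2S3, had 5 to 10 counts in a library, and reads of the pair may be split between them.

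Of the other proteins that can bring the initiator tRNA, EIF2D fell in ASO-L1 cells. EIF2D, a factor known for tRNA delivery without GTP and for recycling of ribosomes, had 27.6 and 26.9 CPM in ASO-L1 cells, 36.5 and 32.8 CPM in sO-L1 cells, and 34.4 and 29.8 CPM in ASO-Ctr cells. The ASO-L1 libraries were the lowest of all, with log2 fold changes of -0.34 ± 0.06 against sO-L1 (adjusted p = 3.25e-05) and -0.22 ± 0.07 against ASO-Ctr (0.00879). The second call was lost without replicate 1 of ASO-L1 or of ASO-Ctr, and with DESeq2 (adjusted p = 0.0669). EIF2A, an initiation factor separate from eIF2 despite its name, had 124 and 120 CPM in ASO-L1 cells, 118 and 111 CPM in sO-L1 cells, and 115 and 105 CPM in ASO-Ctr cells. It was called higher against ASO-Ctr (0.15, adjusted p = 0.0264), a call lost without any 1 library of ASO-L1 or ASO-Ctr and with DESeq2 (0.0586), and not against sO-L1 (0.09, 0.206).

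Of the 5 subunits of eIF2B, the target of ISRIB, 1 was called in each ASO-L1 comparison. This is 20%, below the 23% and 21.5% of all tested genes called against sO-L1 and ASO-Ctr. EIF2B4, the gene of the delta subunit that takes part in the ISRIB pocket, had 80.1 and 74.4 CPM in ASO-L1 cells, 71.2 and 62.8 CPM in sO-L1 cells, and 72.2 and 67.7 CPM in ASO-Ctr cells. The ASO-L1 libraries were the highest, and EIF2B4 was called higher against sO-L1 (0.21 ± 0.05, adjusted p = 0.00170) and ASO-Ctr (0.14 ± 0.05, 0.0449). The first call was lost without sO-L1 replicate 2 (0.120). The second was close to the threshold and was lost without any 1 of the 6 libraries, with DESeq2 (0.123) and with limma-voom (0.0622).

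The other eIF2B subunits had log2 fold changes between -0.12 and 0.02 against the controls and were not called. EIF2B1, the gene of the regulatory alpha subunit, had 66.4 and 60.6 CPM in ASO-L1 cells, 71.3 and 65.1 CPM in sO-L1 cells, and 71.2 and 62.4 CPM in ASO-Ctr cells, with overlap between groups (log2 fold change -0.10 against sO-L1 and -0.07 against ASO-Ctr). EIF2B2, the gene of the beta subunit, had 31.5 and 27.0 CPM in ASO-L1 cells, 32.8 and 27.6 CPM in sO-L1 cells, and 30.5 and 27.96 CPM in ASO-Ctr cells (-0.04 and -0.01). EIF2B3, the gene of the gamma subunit, had 32.8 and 30.9 CPM in ASO-L1 cells, 36.7 and 32.1 CPM in sO-L1 cells, and 33.3 and 29.7 CPM in ASO-Ctr cells (-0.11 and 0.02). In each of these genes replicates 1 and 2 of at least 1 group differed by more than the group means did. EIF2B5, the gene of the catalytic epsilon subunit, had 50.8 and 54.6 CPM in ASO-L1 cells, 56.2 and 54.0 CPM in sO-L1 cells, and 56.7 and 57.7 CPM in ASO-Ctr cells. Its ASO-L1 libraries were below ASO-Ctr and overlapped sO-L1 (-0.12, adjusted p = 0.131, and -0.06, 0.474). No eIF2B subunit was called between sO-L1 and ASO-Ctr.

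Of the 4 eIF2 alpha kinases, EIF2AK4 fell against both controls and EIF2AK3 rose against ASO-Ctr. This is 25% called against sO-L1 and 50% against ASO-Ctr, where 23% and 21.5% of all tested genes were called. EIF2AK4, the gene of GCN2, which senses uncharged tRNA, had 142 and 166 CPM in ASO-L1 cells, 163 and 193 CPM in sO-L1 cells, and 172 and 187 CPM in ASO-Ctr cells. Within each group replicate 1 was the lower, ASO-L1 overlapped sO-L1, and each ASO-L1 library was below its same-numbered counterpart. EIF2AK4 was called lower against sO-L1 (-0.21 ± 0.05, adjusted p = 9.48e-04, and 0.362 without the replicate number) and ASO-Ctr (-0.22 ± 0.05, 5.06e-04, and 0.328 without it). The first call was lost without sO-L1 replicate 2 and the second without ASO-Ctr replicate 1. EIF2AK3, the gene of PERK, the kinase of the endoplasmic reticulum, had 37.0 and 38.0 CPM in ASO-L1 cells, 33.9 and 34.2 CPM in sO-L1 cells, and 32.7 and 32.6 CPM in ASO-Ctr cells. ASO-L1 was above both controls without overlap, and EIF2AK3 was called higher against ASO-Ctr (0.20 ± 0.06, adjusted p = 0.0116) and not against sO-L1 (0.14, 0.0809); the call was lost without replicate 2 of ASO-L1 or of ASO-Ctr, and with DESeq2 (0.0727).

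The remaining kinases were not called. EIF2AK1, the gene of the heme-regulated kinase HRI, had 126 and 130 CPM in ASO-L1 cells, 130 and 140 CPM in sO-L1 cells, and 138 and 142 CPM in ASO-Ctr cells (log2 fold change -0.08 against sO-L1 and -0.13 against ASO-Ctr, adjusted p = 0.271 and 0.0504). EIF2AK2, the gene of the double-stranded RNA sensor PKR, had 94.4 and 116 CPM in ASO-L1 cells, 97.9 and 120 CPM in sO-L1 cells, and 106 and 120 CPM in ASO-Ctr cells. The groups overlapped, and replicate 2 was the higher in each (-0.05 and -0.10, adjusted p = 0.551 and 0.153). In sO-L1 against ASO-Ctr the 4 kinases lay between -0.05 and 0.06 and none was called.

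In the eIF3 complex, the scaffold that holds the small subunit to the mRNA, EIF3D was the one subunit gene that fell. EIF3D, which encodes a subunit that can itself bind the cap of some mRNAs, had 157 and 158 CPM in ASO-L1 cells, 218 and 196 CPM in sO-L1 cells, and 214 and 189 CPM in ASO-Ctr cells. The ASO-L1 libraries were the lowest and nearly equal. Its log2 fold change was -0.39 ± 0.05 against sO-L1 (adjusted p = 1.71e-08, and 0.0553 without the replicate number) and -0.35 ± 0.05 against ASO-Ctr (3.08e-07, and 0.0735 without it). The call held whichever library was left out, with adjusted p of at most 2.32e-04 and 7.72e-04.

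Of 13 eIF3 subunit genes tested, 1 was called higher and 1 lower against sO-L1 (15.4%, below the 23% of all tested genes), and 3 higher and 1 lower against ASO-Ctr (30.8%, against 21.5% of all genes). EIF3G, the gene of an RNA-binding subunit, had 157 and 141 CPM in ASO-L1 cells, 139 and 128 CPM in sO-L1 cells, and 138 and 122 CPM in ASO-Ctr cells. The ASO-L1 libraries were the highest by a small margin (0.16 ± 0.05 against sO-L1, adjusted p = 0.0104; 0.20 ± 0.05 against ASO-Ctr, 0.00132), and the first call was lost without any 1 library of ASO-L1 or sO-L1. EIF3M, the gene of a PCI-domain subunit, had 272 and 249 CPM in ASO-L1 cells, 259 and 226 CPM in sO-L1 cells, and 233 and 213 CPM in ASO-Ctr cells. It was called against ASO-Ctr (0.23, adjusted p = 2.41e-04) and not against sO-L1 (0.11, 0.0952). EIF3K had 180 and 152 CPM in ASO-L1 cells, 173 and 142 CPM in sO-L1 cells, and 162 and 141 CPM in ASO-Ctr cells, with overlap between all groups, and was called against ASO-Ctr near the threshold (0.13, adjusted p = 0.0438).

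The 11 eIF3 subunits not called against sO-L1 lay between -0.04 and 0.11, and the 9 not called against ASO-Ctr between 0.00 and 0.13. They include the largest subunit gene EIF3A, at 660 and 755 CPM in ASO-L1 cells, 696 and 739 CPM in sO-L1 cells, and 671 and 695 CPM in ASO-Ctr cells, and EIF3B, at 553 and 536 CPM in ASO-L1 cells, 525 and 502 CPM in sO-L1 cells, and 540 and 494 CPM in ASO-Ctr cells. In both genes ASO-L1 overlapped ASO-Ctr. EIF3C had 167 to 319 counts in 5 libraries and 89 in ASO-Ctr replicate 1, and its near-identical copy EIF3CL 0 to 7 counts, so reads of this pair are uncertain and EIF3CL was not tested. In GENCODE v29, 41.1% of the exon bases of EIF3L are shared on the same strand with another gene, which makes its counts uncertain.

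The eIF4 factors, which bind the cap and unwind the mRNA, held the largest fall. EIF4G3, which encodes a second form of the eIF4G scaffold that joins cap-binding protein, helicase and eIF3, had 85.4 and 107 CPM in ASO-L1 cells, 137 and 153 CPM in sO-L1 cells, and 159 and 162 CPM in ASO-Ctr cells. Both ASO-L1 libraries were below all others, ASO-L1 replicate 1 the lowest. Its log2 fold change was -0.60 ± 0.05 against sO-L1 (adjusted p = 1.40e-12, and 0.0301 without the replicate number) and -0.74 ± 0.05 against ASO-Ctr (2.05e-15, and 0.0150 without it). Its paralogs were not called: EIF4G1 had 755 and 781 CPM in ASO-L1 cells, 796 and 820 CPM in sO-L1 cells, and 831 and 823 CPM in ASO-Ctr cells (-0.07 and -0.11). EIF4G2, whose product lacks the site for the cap-binding protein, had 1741 and 1693 CPM in ASO-L1 cells, 1690 and 1591 CPM in sO-L1 cells, and 1740 and 1547 CPM in ASO-Ctr cells (0.07 and 0.07).

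Among the cap-binding proteins, EIF4E2 and EIF4E3, the genes of the relatives of eIF4E, fell in ASO-L1 cells. EIF4E3 had 28.9 and 29.4 CPM in ASO-L1 cells, 34.1 and 36.5 CPM in sO-L1 cells, and 34.9 and 36.1 CPM in ASO-Ctr cells. Both ASO-L1 libraries were below all the others, while sO-L1 and ASO-Ctr overlapped. The log2 fold change was -0.28 ± 0.06 against sO-L1 (adjusted p = 3.98e-04; lost without sO-L1 replicate 2, 0.0561) and about the same against ASO-Ctr (adjusted p = 4.79e-04). EIF4E2, known for translational repression, had 103 and 101 CPM in ASO-L1 cells, 127 and 113 CPM in sO-L1 cells, and 121 and 107 CPM in ASO-Ctr cells. It was called lower against sO-L1 (-0.23 ± 0.05, adjusted p = 4.90e-04) and ASO-Ctr (-0.15 ± 0.05, 0.0226). Both calls were lost without ASO-L1 replicate 1, the first without sO-L1 replicate 1, and the second without ASO-Ctr replicate 1 and with DESeq2 (0.0779). In GENCODE v29, 24.2% of the exon bases of EIF4E2 are shared with genes on the opposite strand. EIF4E itself, the main cap-binding protein, had 124 and 119 CPM in ASO-L1 cells, 137 and 123 CPM in sO-L1 cells, and 119 and 117 CPM in ASO-Ctr cells, and was not called (-0.09 and 0.05).

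The helicase and its partners changed less or are uncertain. EIF4A1, the gene of the main helicase, had 6.18 and 7.51 CPM in ASO-L1 cells, 4.93 and 6.44 CPM in sO-L1 cells, and 4.30 and 5.22 CPM in ASO-Ctr cells, and was called higher against ASO-Ctr (0.53 ± 0.12, adjusted p = 6.47e-04) and not against sO-L1 (0.27, 0.0802). In GENCODE v29, 48.6% of its exon bases are shared on the same strand with other genes, among them the readthrough gene SENP3-EIF4A1, which had 3 to 17 counts in a library, so its level and fold change are uncertain. The call was lost without ASO-Ctr replicate 2. EIF4A2, the gene of the second helicase, had 502 and 535 CPM in ASO-L1 cells, 539 and 538 CPM in sO-L1 cells, and 478 and 502 CPM in ASO-Ctr cells (-0.05 and 0.08, not called). EIF4B, the gene of a helicase cofactor, had 717 and 700 CPM in ASO-L1 cells, 668 and 657 CPM in sO-L1 cells, and 668 and 625 CPM in ASO-Ctr cells. ASO-L1 was above both controls, and EIF4B was called against ASO-Ctr (0.13 ± 0.05, adjusted p = 0.0299) and not against sO-L1 (0.10, 0.127). EIF4H, a related cofactor, was not called (0.08 and 0.07), nor were EIF4A3, the helicase of the exon junction complex (-0.01 and 0.03), EIF4ENIF1, which carries eIF4E into the nucleus (-0.05 and -0.04), and EIF4E1B, a form of eIF4E known from oocytes that had 12 to 92 counts in a library (-0.43 and -0.06).

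**Figure D3:**
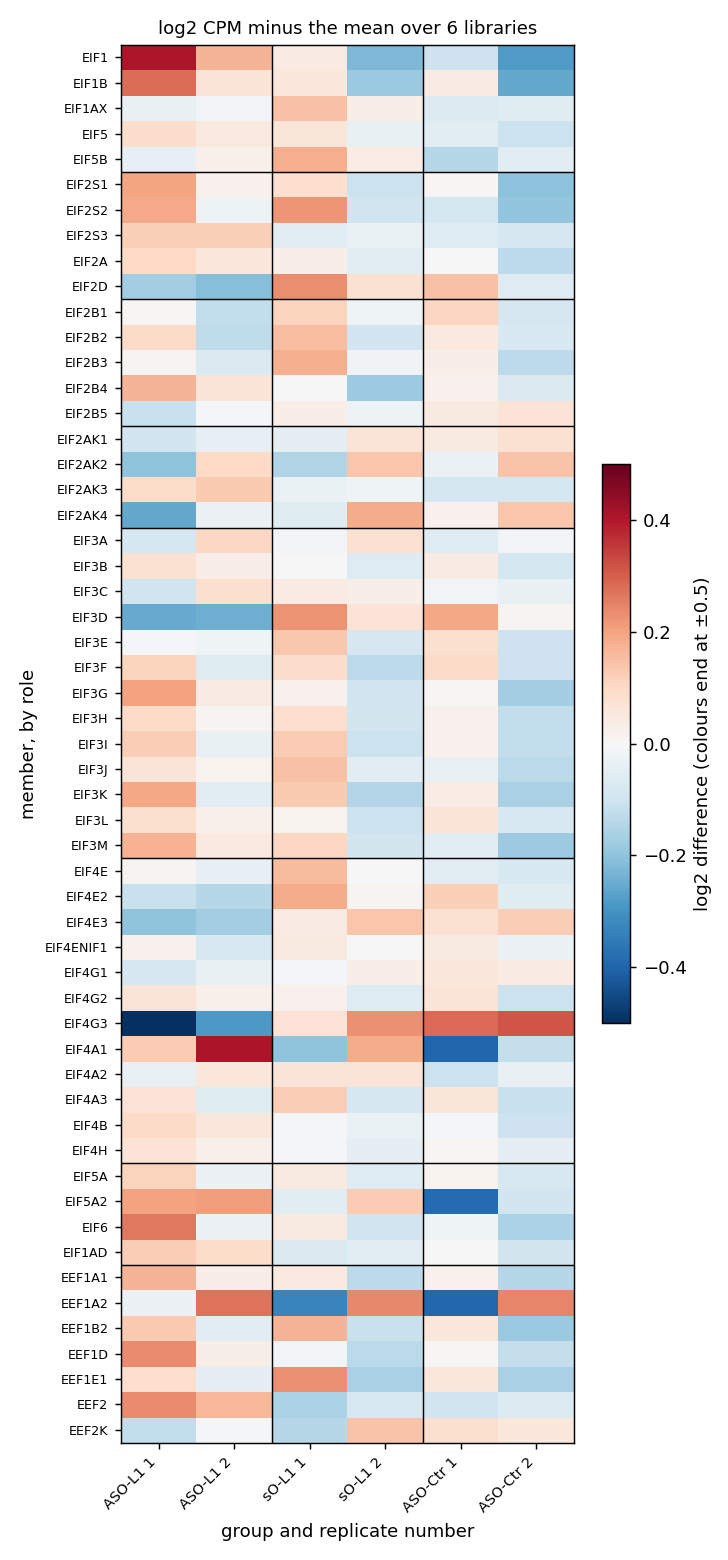
Log2 CPM of each library minus the mean over 6 libraries, for the 55 tested members with a mean of at least 2 CPM in ASO-Ctr cells, in rows by role, and for the libraries of ASO-L1, sO-L1 and ASO-Ctr in columns; colours end at 0.5 in each direction. EIF4G3 and EIF3D are blue in both ASO-L1 columns, EIF1 and EEF2 red, and in many rows replicate 1 is redder than replicate 2 in all 3 groups.

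Among the elongation factors EEF2, EEF1A1 and EEF1D rose in ASO-L1 cells. The 7 tested EEF genes include EEF2K and EEF1E1, whose products are not themselves elongation factors. Of the 7, 3 (42.9%) were called higher against sO-L1 and the same 3 against ASO-Ctr, and none lower. Among all tested genes 10.3% and 9.88% were called higher and 12.7% and 11.6% lower. EEF2, the gene of the GTPase that moves the ribosome along the mRNA, had 3263 and 3107 CPM in ASO-L1 cells, 2484 and 2617 CPM in sO-L1 cells, and 2594 and 2643 CPM in ASO-Ctr cells. ASO-L1 lay above the rest without overlap, with log2 fold changes of 0.32 ± 0.05 against sO-L1 (adjusted p = 5.66e-07, and 0.0598 without the replicate number) and 0.28 ± 0.05 against ASO-Ctr (6.44e-06, and 0.0858 without it). EEF2K, the gene of the kinase that inhibits eEF2, had 21.0 and 22.8 CPM in ASO-L1 cells, 20.7 and 25.3 CPM in sO-L1 cells, and 24.2 and 23.8 CPM in ASO-Ctr cells, and was not called (-0.08 and -0.11).

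EEF1A1, the gene of the factor that brings aminoacyl-tRNA to the ribosome, had 6320 and 5763 CPM in ASO-L1 cells, 5822 and 5135 CPM in sO-L1 cells, and 5713 and 5092 CPM in ASO-Ctr cells. Replicate 2 of ASO-L1 was below replicate 1 of sO-L1, and replicate 1 was the higher in each group. EEF1A1 was called higher against sO-L1 (0.14 ± 0.05, adjusted p = 0.0179, and 0.506 without the replicate number) and ASO-Ctr (0.16 ± 0.05, 0.00681, and 0.439 without it), and the first call was lost without any 1 library of ASO-L1 or sO-L1. Its many processed copies left out by name, counted apart, summed to 82.9 and 81.8 CPM in ASO-L1 cells, 82.97 and 71.1 CPM in sO-L1 cells, and 83.7 and 68.4 CPM in ASO-Ctr cells. EEF1A2, the gene of the form known from brain and muscle, had 14.6 and 18 CPM in ASO-L1 cells, 11.9 and 17.6 CPM in sO-L1 cells, and 11.4 and 17.7 CPM in ASO-Ctr cells, with replicate 2 the higher in each group and no call.

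The exchange factor that recharges eEF1A moved in part. EEF1D, the gene of its delta subunit, had 222 and 193 CPM in ASO-L1 cells, 187 and 172 CPM in sO-L1 cells, and 190 and 174 CPM in ASO-Ctr cells. The ASO-L1 libraries were the highest, and EEF1D was called higher against sO-L1 (0.21 ± 0.05, adjusted p = 8.40e-04) and ASO-Ctr (0.19 ± 0.05, 0.00262). Both calls were lost without ASO-L1 replicate 1, the first also without sO-L1 replicate 1 and the second without ASO-Ctr replicate 1, and 34.0% of its exon bases are shared with genes on the opposite strand. EEF1B2, the gene of a second exchange subunit, had 437 and 383 CPM in ASO-L1 cells, 448 and 369 CPM in sO-L1 cells, and 413 and 351 CPM in ASO-Ctr cells and was not called (0.01 and 0.10). EEF1E1, part of the aminoacyl-tRNA synthetase complex despite its symbol, was not called (-0.01 and 0.07). EEF1G, the gene of the third exchange subunit, had 0 to 5 counts in a library and was not tested. In GENCODE v29 99.9% of its exon bases are shared on the same strand with another gene.

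The remaining factors include EIF6, EIF1AD and the genes of eIF5A. EIF6, which keeps the ribosomal subunits apart, had 89.2 and 72.9 CPM in ASO-L1 cells, 76.6 and 69.3 CPM in sO-L1 cells, and 73.2 and 66.6 CPM in ASO-Ctr cells. The groups overlapped, and EIF6 was called higher against sO-L1 (log2 fold change 0.14, adjusted p = 0.0341) and ASO-Ctr (0.20, 0.00326). Against sO-L1 its log2 fold change was 0.07 and the call lost without ASO-L1 replicate 1, and the call was also lost without either sO-L1 library and with DESeq2 (0.121). EIF1AD, a gene related in sequence to EIF1AX, had 43.7 and 42.7 CPM in ASO-L1 cells, 38.2 and 38.7 CPM in sO-L1 cells, and 40.1 and 37.7 CPM in ASO-Ctr cells. ASO-L1 did not overlap the others (0.17, adjusted p = 0.0278, and 0.16, 0.0440). The call against sO-L1 was lost without any 1 library of either group and with DESeq2 (0.129), and the call against ASO-Ctr without any 1 of the 6 libraries.

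EIF5A, which helps the ribosome over stretches of proline and carries the modified lysine hypusine, had 583 and 528 CPM in ASO-L1 cells, 556 and 516 CPM in sO-L1 cells, and 546 and 510 CPM in ASO-Ctr cells, and was not called (0.05 and 0.07). Its paralog EIF5A2 had 9.37 and 9.42 CPM in ASO-L1 cells, 7.84 and 8.90 CPM in sO-L1 cells, and 6.21 and 7.62 CPM in ASO-Ctr cells. EIF5A2 was above both controls, and was called against ASO-Ctr (0.41 ± 0.11, adjusted p = 0.00302) and not against sO-L1 (0.16, 0.263). EIF5AL1, a near-identical copy of EIF5A, had 31 to 76 counts and was not called. EIF1AY was not tested.

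Both ASO-L1 libraries were above both sO-L1 libraries in 16 of 58 members and below them in 9, where 23.6% and 23.4% of all tested genes were so placed (47.1% in all). Against ASO-Ctr the counts were 24 above and 10 below, where the shares of all genes were 23.8% and 24.8% (48.6% in all). In sO-L1 against ASO-Ctr they were 10 and 3, where the shares were 14.5% and 15.2% (29.7% in all). For ASO-L1 against sO-L1, the authors' deposited table lists 57 members, of which 12 were higher and 6 lower at adjusted p under 0.05. Of all 16753 genes it lists, 1882 were higher and 2000 lower. It was made by the authors for the same comparison of this study, so calls shared with it are not independent support. The 16 members called here were all called in the authors' deposited table, which in addition listed EIF2S1 (log2 fold change 0.13, adjusted p = 0.0271) and EIF3M (0.12, 0.0478). In the authors' deposited table the value for EIF4G3 was -0.59.

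The members that fell were, on the median, longer genes than those that rose. In GENCODE v29 (GRCh38) the 10 members called higher against sO-L1 spanned a median of 6.11 kb (2.74 to 23.3 kb) and the 6 called lower a median of 60.3 kb (18.6 to 371 kb), and the 42 not called a median of 23.4 kb. Over all tested genes with a span the medians were 28.2 kb for those called higher, 48.8 kb for those called lower and 27.3 kb for the rest. EIF4G3, with 371 kb, was the longest member called and EIF1B, with 2.74 kb, the shortest. EIF3D, at 18.6 kb, fell and was shorter than EEF1D (19.8 kb) and EIF2S3 (23.3 kb), which rose. Against ASO-Ctr the medians of the members were 14.7 kb for those higher, 60.3 kb for those lower and 24.4 kb for the rest, and those of all genes 22.3, 70.4 and 27.3 kb. These values are descriptions and were not tested.

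**Figure D4:**
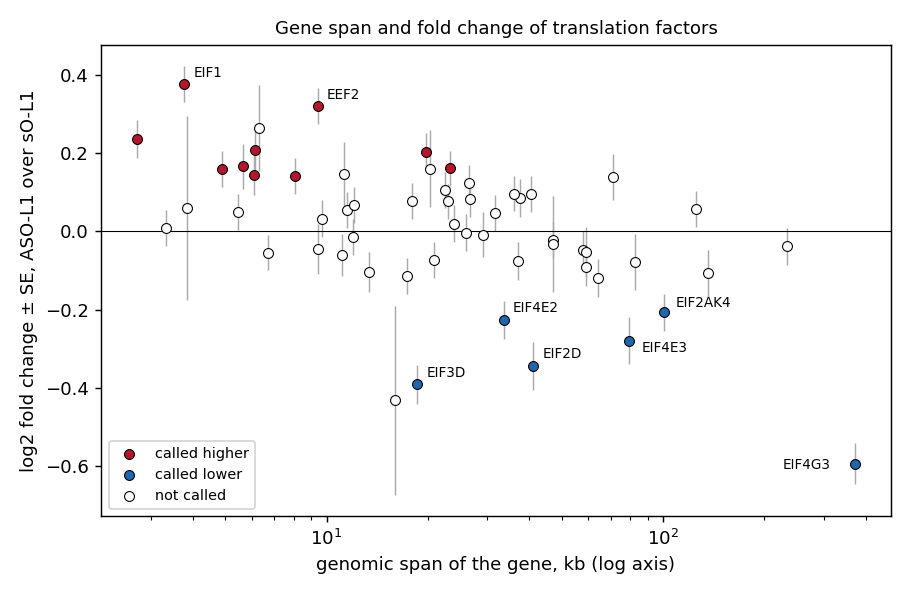
Log2 fold change ± SE of ASO-L1 over sO-L1 (vertical axis) against the genomic span of the gene in kb (logarithmic horizontal axis) for 57 tested members, red where called higher, blue where called lower and white where not called. The red points lie between 2.74 and 23.3 kb and the blue ones between 18.6 and 371 kb.

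Among genes that control the phosphorylation of eIF2 or answer to it, single changes were larger than in any translation factor. Of 18 tested, 5 were called higher and 3 lower against sO-L1, and 6 higher and 1 lower against ASO-Ctr (44.4% and 38.9% of the list, where 23% and 21.5% of all tested genes were called; median log2 fold change 0.00 and 0.06). DDIT3, the gene of the stress factor CHOP, had 12.6 and 6.89 CPM in ASO-L1 cells, 3.88 and 3.15 CPM in sO-L1 cells, and 3.56 and 2.55 CPM in ASO-Ctr cells, with ASO-L1 above all others and its replicates far apart (1.41 against sO-L1, adjusted p = 1.31e-12; 1.61 against ASO-Ctr, 1.85e-13). ATF4, whose translation rises when eIF2 is phosphorylated, had 465 and 412 CPM in ASO-L1 cells, 361 and 318 CPM in sO-L1 cells, and 342 and 313 CPM in ASO-Ctr cells (0.37, adjusted p = 1.61e-08, and 0.42, 7.26e-10).

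Both regulatory subunits of the phosphatase that removes the phosphate from eIF2 rose. PPP1R15A, the stress-induced one, had 23.9 and 19.8 CPM in ASO-L1 cells, 15.9 and 15.6 CPM in sO-L1 cells, and 12.96 and 14.2 CPM in ASO-Ctr cells (0.46, adjusted p = 1.18e-05, and 0.64, 4.57e-08). PPP1R15B, the constitutive one, had 114 and 109 CPM in ASO-L1 cells, 83.9 and 85.1 CPM in sO-L1 cells, and 90.7 and 87.9 CPM in ASO-Ctr cells (0.40, adjusted p = 1.31e-08, and 0.32, 2.18e-06). In both the ASO-L1 libraries were above the rest. Of the genes that restrain the kinases, DNAJC3, which acts on PKR and PERK, was lower against sO-L1 (-0.20, adjusted p = 0.00470) and ASO-Ctr (-0.25, 4.36e-04), and IMPACT, which acts on GCN2, against sO-L1 (-0.20, 0.00246; -0.09 and 0.251 against ASO-Ctr). TARBP2, which inhibits PKR, was not called (0.03 and 0.09), nor was NCK1, an adaptor that limits eIF2 phosphorylation (-0.01 and 0.08). OMA1, the mitochondrial protease upstream of HRI, was lower against sO-L1 alone (-0.35, adjusted p = 0.00208; -0.10 and 0.508 against ASO-Ctr). TRIB3, the gene of a pseudokinase induced through ATF4, had 36.0 and 22.8 CPM in ASO-L1 cells, 11.6 and 10.9 CPM in sO-L1 cells, and 10.2 and 11.8 CPM in ASO-Ctr cells. Its ASO-L1 libraries were above all others and far apart (1.35, adjusted p = 0.0235, and 1.30, 0.0301), and the first call was lost without at least 1 library (largest adjusted p 0.129). Without the replicate number, TRIB3 (adjusted p = 0.0120 and 0.0133) and DDIT3 (0.0339 and 0.0252) were called against both controls. PPP1R15B was then called against sO-L1 (0.0247) and not ASO-Ctr (0.0526), PPP1R15A against ASO-Ctr (0.0268) and not sO-L1 (0.0739), and ATF4 against neither (0.0842 and 0.0568).

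The list of mTORC1 signalling and of control of the cap-binding protein held 7 genes called higher and 2 lower of 22 against sO-L1, and 6 higher and 3 lower against ASO-Ctr (40.9% in each, where 23% and 21.5% of all genes were called; median 0.03 and 0.01). The largest changes were in stress-induced inhibitors of mTORC1. DDIT4 had 19.3 and 13.8 CPM in ASO-L1 cells, 8.02 and 6.21 CPM in sO-L1 cells, and 7.59 and 7.17 CPM in ASO-Ctr cells (1.21, adjusted p = 3.65e-14, and 1.099, 1.67e-12). SESN2 had 62.6 and 53.3 CPM in ASO-L1 cells, 33.6 and 34.8 CPM in sO-L1 cells, and 35.4 and 36.4 CPM in ASO-Ctr cells (0.75, adjusted p = 8.39e-14, and 0.67, 5.00e-12). Neither overlapped the controls, and both were also called without the replicate number (adjusted p between 0.00805 and 0.0193).

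Of the eIF4E-binding proteins, which block the cap-binding protein until mTORC1 phosphorylates them, EIF4EBP1 had 78.9 and 64.8 CPM in ASO-L1 cells, 58.8 and 56.4 CPM in sO-L1 cells, and 54.6 and 51.1 CPM in ASO-Ctr cells. It rose against both (0.31, adjusted p = 1.89e-05, and 0.43, 4.41e-08), and without the replicate number it was not called (0.147 and 0.0614). EIF4EBP2 had 419 and 444 CPM in ASO-L1 cells, 443 and 437 CPM in sO-L1 cells, and 483 and 460 CPM in ASO-Ctr cells, and was called lower against ASO-Ctr near the threshold (-0.13, adjusted p = 0.0439) and not against sO-L1 (-0.03, 0.723). EIF4EBP3 was below the filter and not tested. RPS6KB1, the gene of the S6 kinase downstream of mTORC1, fell, with 29.1 and 32.6 CPM in ASO-L1 cells, 38.3 and 41.4 CPM in sO-L1 cells, and 36.0 and 40.5 CPM in ASO-Ctr cells (-0.37, adjusted p = 3.69e-06, and -0.31, 9.92e-05). RHEB, the GTPase that activates mTORC1, was lower against sO-L1 (-0.14, adjusted p = 0.0286; -0.13 and 0.0662 against ASO-Ctr). SESN3 was the one gene of all the accessory lists called between sO-L1 and ASO-Ctr (-0.22, adjusted p = 0.0317).

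Of 20 accessory genes of initiation, 4 were called higher and 5 lower against sO-L1, and 3 higher and 2 lower against ASO-Ctr (45% and 25%, where 23% and 21.5% of all genes were called; median -0.06 and 0.02). LARP1, known to bind oligopyrimidine starts, had 660 and 667 CPM in ASO-L1 cells, 538 and 581 CPM in sO-L1 cells, and 590 and 581 CPM in ASO-Ctr cells (0.25, adjusted p = 6.23e-05, and 0.18, 0.00296). Its binding to the starts printed above was not measured. DDX3X, a helicase of structured leaders, rose by 0.21 (adjusted p = 3.99e-04) and 0.20 (9.74e-04), and the poly(A)-binding protein gene PABPC1L by 0.24 (0.00309) and 0.37 (1.67e-05). NCBP2, a subunit of the nuclear cap-binding complex, had 110 and 121 CPM in ASO-L1 cells, 152 and 145 CPM in sO-L1 cells, and 138 and 135 CPM in ASO-Ctr cells (-0.36, adjusted p = 2.04e-07, and 0.0460 without the replicate number; -0.24 against ASO-Ctr, 3.58e-04). PDCD4, an inhibitor of the eIF4A helicase, was lower against sO-L1 (-0.30, adjusted p = 0.00188; -0.16 and 0.140 against ASO-Ctr), and PAIP2B, an inhibitor of poly(A)-binding protein, was lower against both (-0.20, 0.00794, and -0.29, 3.10e-04).

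Of 16 accessory genes of elongation, 4 were called higher and 1 lower in each ASO-L1 comparison (31.2%, where 23% and 21.5% of all genes were called; median -0.02 against sO-L1 and 0.07 against ASO-Ctr). Both enzymes that make hypusine on eIF5A rose: DHPS by 0.19 against sO-L1 (adjusted p = 0.0145) and 0.24 against ASO-Ctr (0.00183), and DOHH by 0.21 (0.0134) and 0.30 (7.56e-04). DPH3, needed for the diphthamide residue of eEF2, rose by 0.14 (adjusted p = 0.0397) and 0.22 (0.00189), and METTL10, a methyltransferase of eEF1A, by 0.40 against ASO-Ctr (0.00139; 0.17 and 0.192 against sO-L1). EEFSEC, which delivers selenocysteine and whose symbol the naming rule does not take, fell (-0.22, adjusted p = 0.0478, and -0.28, 0.0120). None of these was called without the replicate number. Of 10 genes of termination, recycling and rescue, 2 were called against sO-L1 and 1 against ASO-Ctr (20% and 10%, below the shares of all genes). LTN1, a ligase of stalled chains, rose (0.22, adjusted p = 0.00110, and 0.19, 0.00594), and its partner NEMF fell against sO-L1 (-0.22, 0.00119; -0.10 and 0.169 against ASO-Ctr). Of 14 mitochondrial translation factors, 2 were called higher and 1 lower against sO-L1 and 2 higher and 2 lower against ASO-Ctr (21.4% and 28.6%), with MTFMT, which formylates the mitochondrial initiator tRNA, lower against both (-0.25, adjusted p = 0.0112, and -0.27, 0.00998). The mitochondrial elongation factor GFM1 (0.13, adjusted p = 0.0423, and 0.21, 0.00187) and the release factor MTRF1L (0.17 in both, 0.0210 and 0.0266) rose, and C12orf65, a rescue factor, fell against ASO-Ctr (-0.22, 0.00721; -0.05 and 0.592 against sO-L1).

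Across the 6 accessory lists 36 of 100 tested genes were called against sO-L1 and 31 against ASO-Ctr, where 23% and 21.5% of all tested genes were called. Some of these were called whichever library was left out, a share that is not given here for all genes. Among those named here, DDX3X, EIF4EBP1, RPS6KB1, DDIT4, SESN2, PPP1R15A, PPP1R15B, ATF4 and DDIT3 were so in both comparisons, NCBP2 and LARP1 against sO-L1, and PABPC1L, DNAJC3, TRIB3, DOHH and DPH3 against ASO-Ctr. The remaining calls were lost without at least 1 library, for instance EEFSEC (largest adjusted p 0.272 against sO-L1 and 0.161 against ASO-Ctr), GFM1 (0.428 and 0.105) and PAIP2B (0.322 and 0.0616).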

How the data were processed

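The counts deposited by the authors are raw counts per gene symbol of 6 libraries, with duplicate reads removed according to the table's name. Trim Galore 0.4.0 was used for trimming, TopHat2 2.0.13 with genome build hg19, and featureCounts (Subread 1.5.0), per the submitters' processing notes. The kit was directional per the labels' protocols, but whether counting used the strand is not given in the sources used here. The header of the count table is shifted by 1 cell, and its columns were matched to the deposited log2 table. The authors' deposited log2 values are normalized and batch-corrected per the table's name. For ASO-L1 minus sO-L1 the authors also deposited log2 fold changes, p-values and 2 scores (t and B). No column of values was left without a sample (0).

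Counts without 92 spike-in entries were fitted with edgeR 4.0.16 in R 4.3.3: TMM scaling, filterByExpr (minimum count 10, total 15), and the robust quasi-likelihood test with group and replicate number over 6 libraries. This left 2 residual degrees of freedom. The spread of each gene was moderated with that of the other genes, with a median of 44.8 prior degrees of freedom. The p-values and SE thus rest mostly on a spread shared over genes. Benjamini-Hochberg adjustment ran over 19156 genes and genes under 0.05 were called. The SE was derived from the log2 fold change and its F statistic, and CPM use TMM-scaled totals.

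Replicate number was kept in the fit since a table corrected for batch is among the study's files. The labels do not say what a number shares, and with 2 numbers the pairing is not established. Deviations of same-numbered libraries correlated between groups at 0.278, 0.191 and 0.258.

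Named members were, in each comparison, up to 10 called in each direction with the smallest adjusted p, and in every case the genes of eIF2, eIF2B, the eIF2 kinases, EIF2A, EIF2D and the eIF4E-binding proteins; of each accessory list, up to 3 called in each direction. Other genes were added after their values were seen: EIF5, EIF3K, EIF4B and EIF5A2, which were called, the remaining tested members, and TRIB3, TARBP2, NCK1 and markers of other cell types. The members and lists were chosen with earlier results of these data known. Alternatives were DESeq2 size factors, no filter, DESeq2 1.42.0, limma-voom (limma 3.58.1), no replicate block, the 4 libraries compared, and each library left out. Gene overlap and spans come from GENCODE v29, and starts from RefSeq.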

Additional observations from a re-analysis of the deposited data

How the results depend on the processing

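The replicate block in the fit decided most calls. Without it, 1 member was called in ASO-L1 against sO-L1 (0 higher, 1 lower) and 1 in ASO-L1 against ASO-Ctr (0 higher, 1 lower). In sO-L1 against ASO-Ctr 0 were called (0 higher). There edgeR gave 1 member at an unadjusted p under 0.05, where 569 of all 19156 tested genes had one. The cause was not tested. With 1 library left out, the members called ranged from 9 to 16 against sO-L1 (4 to 10 higher, 5 to 7 lower), from 13 to 24 in ASO-L1 against ASO-Ctr (10 to 18 higher, 3 to 6 lower) and from 0 to 3 in sO-L1 against ASO-Ctr (0 to 2 higher, 0 to 1 lower). Such fits hold fewer samples, and the spread of a group with 1 library was taken from the other groups. DESeq2 called 14, 19 and 2 members in the 3 comparisons. The shares of all genes called with DESeq2 or with 1 library left out are not given here. The counts therefore do not say whether members lost calls more often than other genes. Changes of sign were among differences that were not called. EIF2B2 in ASO-L1 against ASO-Ctr was 0.005 without the block. With 1 library left out, the ranges that crossed zero were, against sO-L1, -0.061 to 0.099 for EIF2S2 and -0.095 to 0.035 for EIF4EBP2, in ASO-L1 against ASO-Ctr -0.058 to 0.053 for EIF2B2 and -0.029 to 0.065 for EIF2B3, and in sO-L1 against ASO-Ctr -0.118 to 0.001 for EIF2AK2, -0.076 to 0.043 for EIF2AK4, -0.01 to 0.102 for EIF2B2 and -0.111 to 0.014 for EIF2B5. Of 88 called values of named genes, all kept their sign in every alternative, 37 were called in every alternative other than the fit without the block, and 11 were called without the block. The depth of ASO-Ctr replicate 1, the lowest, limits the comparisons with ASO-Ctr.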
